A study of Mus musculus with 23 samples.

Results

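OT-I cells from mice given a higher dose of free ovalbumin (OVA) were compared with OT-I cells from mice given the molar-equivalent dose. The 6 libraries were taken by their labels, 3 of each dose, from the 23 libraries of the study. The sample titles carry the number 5 for the higher dose and 0.5 for the molar-equivalent dose, without a unit. OT-I cells are CD8 T cells with a transgenic receptor for an OVA peptide, and OT-II cells are their CD4 counterparts for another OVA peptide. OT-I and OT-II cells were transferred into C57BL/6 mice, whose age and sex were not given in the sources used here. After 1 day the mice were dosed with saline, the molar equivalent of free OVA, the higher dose of free OVA, or 1 ug of A8B1-OVA. A8B1 itself is not described in those sources. The sort took place 5 days after transfer, on spleen and lymph node cells put together, and each library holds polyadenylated RNA pooled from 3 mice. Every OT-I group carries the same kind of transferred cells, as does every OT-II group, and the host mice keep their own lymphocytes.

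A CD8 T cell that meets its peptide on MHC class I divides, changes its adhesion and chemokine receptors, and can acquire granzymes and interferon gamma. Soluble protein given without an inflammatory signal often leaves transferred T cells in a poorly responsive state called anergy, in which inhibitory receptors such as PD-1, LAG-3 and CTLA-4 are raised. By its title the study is about anergy of T cells after antigen is targeted to red blood cells, and the dose step asks what the amount of untargeted OVA does to the CD8 cells.

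The deposited totals were 33.5 M to 34.3 M counts in the higher-dose libraries and 26.6 M to 56 M in the molar-equivalent libraries. A count of 0 therefore allows at most 0.113 CPM (a count set relative to the size of its library) in the shallowest of them, counting error only. Cd8a, which encodes CD8 alpha, was high in every library of both doses. Its level was 786 to 1100 CPM of the plain library total with the higher dose. With the molar-equivalent dose it was 964 to 1190 CPM. Higher-dose replicate 1 stood apart, with 164 CPM of Cd4, against a mean of 1.03 CPM in higher-dose replicates 2 and 3. That Cd4 level was 23.9% of the mean of the OT-II higher-dose libraries. The CD4 T cell markers Zbtb7b and Cd40lg were at 35.2 and 58.4 CPM in this library, which is 36.8% and 37.2% of the OT-II means. Their means in higher-dose replicates 2 and 3 were 2.28 and 11.5 CPM. Cd8a in higher-dose replicate 1 was 73.5% of that in replicates 2 and 3. Molar-equivalent replicate 2 stood apart too. Its 20 B cell markers summed to 3440 CPM and its 26 myeloid markers to 1320 CPM, against at most 889 and 325 CPM in the other 5 libraries. Both libraries stayed in the comparison, and the calls lost without them are named after the counts of genes that passed. The labels tell the libraries of a group apart only as pools of mice, so p-values measure the spread between these pools only. In such bulk RNA a change in the share of cells that express a gene cannot be told apart from a change in RNA per cell.

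**Figure D1:**
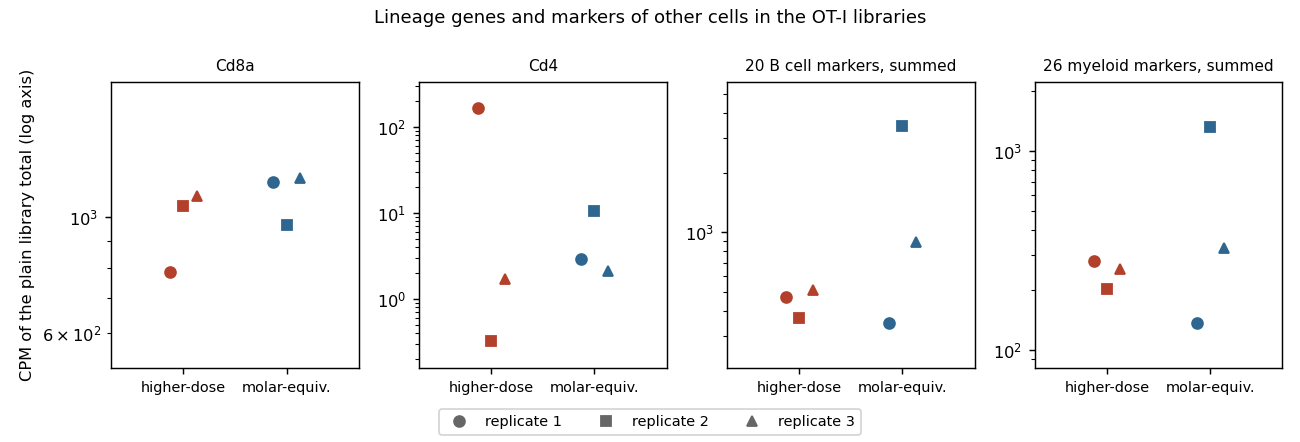
Cd8a, Cd4, and the summed B cell and myeloid markers in each OT-I library, in CPM of the plain library total on log axes, with the higher-dose libraries left of the molar-equivalent ones and 1 symbol per replicate. Higher-dose replicate 1 carried 164 CPM of Cd4, and molar-equivalent replicate 2 carried 3440 CPM of B cell markers and 1320 CPM of myeloid markers.

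The higher dose moved 146 of the 14080 genes tested, which is 1.04% (Benjamini-Hochberg adjusted p under 0.05 in edgeR's quasi-likelihood test, n = 3 against 3). Of these, 118 genes rose, 0.838% of those tested, and 28 fell, 0.199%. The genes that rose included adhesion molecules, chemokine receptors, inhibitory receptors and mitotic genes, and the genes that fell included receptors of naive T cells. Their log2 fold changes, higher-dose over molar-equivalent OVA, had a median of 1.29 among the genes that rose and -0.86 among those that fell. A change of over 2-fold was seen in 82 of the 118 and in 7 of the 28. Counted over all genes tested, 8.55% had every higher-dose library above every molar-equivalent library, and 6.53% had every one below.

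How many genes passed depended on single libraries. Without higher-dose replicates 1, 2 and 3 in turn the counts were 144, 14 and 28, and without molar-equivalent replicates 1, 2 and 3 they were 13, 149 and 153. Fitted on the 6 libraries alone, with no spread borrowed from the saline and A8B1-OVA groups, the test called 2 genes. DESeq2 called 616, but it was fitted with the saline and A8B1-OVA groups included and not on the 6 libraries alone. In all 146 genes, 118 higher and 28 lower, the 2 groups did not overlap. Leaving out a library could therefore hardly turn their direction, and none turned. Only 10 genes passed in all 6 fits with a library left out. These were Itgb1, Nrp1, Ikzf3, Myb, Cxcr5 and Pdcd1, described below, and Capn3, Stk39, Ttc39b and Dop1b. Capn3, a calcium-dependent protease, had a log2 fold change of 2.32 ± 0.30, the kinase gene Stk39 one of 1.49 ± 0.20, Dop1b 1.32 ± 0.18 and Ttc39b 1.20 ± 0.16 (SE). Without higher-dose replicate 1 and molar-equivalent replicate 2 together, 164 genes passed, and 68 of the 118 and 11 of the 28 were among them. Of 59 genes described as called, 36 still passed without both and 23 missed the threshold with the same direction, at adjusted p of 0.0505 to 0.119. Those 23 were Ncf1, Izumo1r, Cd200, Ifng, Ccne2, Ncapg, Actn2, Zbtb32, Cd28, Ccr9, Kif4, Lag3, Casp1, Rrm2, Klrk1, Bub1b, Ctla2a, Treml2, Slpi, Stx1a, Gata3, Ifi27l2a and Ptger4. Higher-dose replicate 1 had the lowest level of its group for 85 of the 118 genes, and molar-equivalent replicate 3 the highest level of its group for 65. The raised Cd4 of higher-dose replicate 1 went with those lower levels, and its part in them was not tested.

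**Figure D2:**
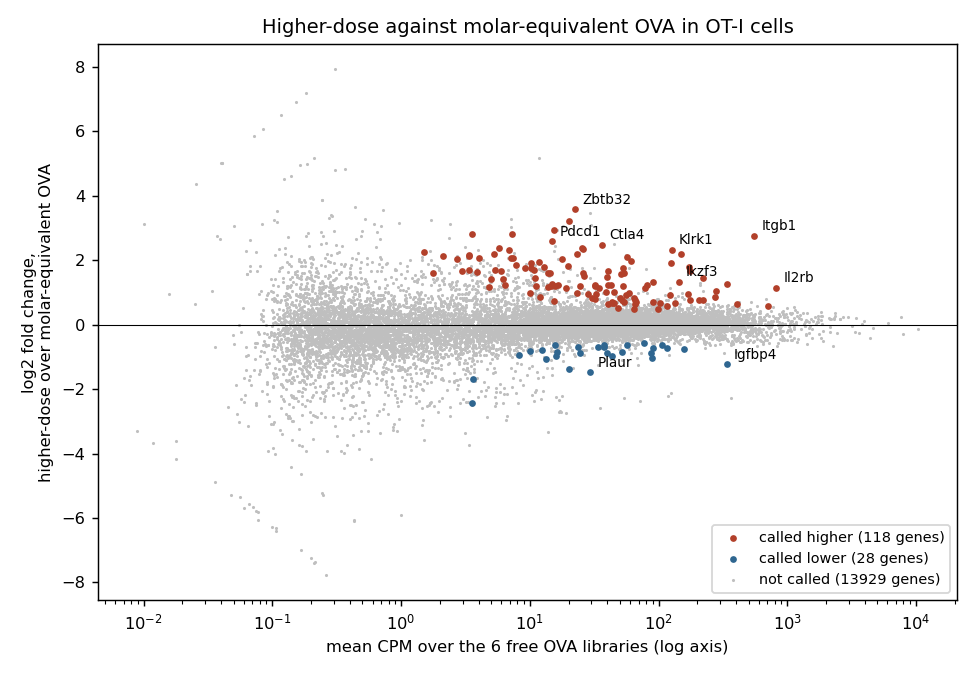
Log2 fold change of higher-dose over molar-equivalent OVA for each gene tested in OT-I cells, against its mean CPM over the 6 libraries on a log axis. The 118 genes called higher and the 28 called lower are coloured, and 5 genes at 0 in all 6 libraries are not drawn.

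Adhesion and homing molecules were among the genes that moved. Of 30 chemokine receptors and homing molecules tested, 8 rose and 1 fell, against 0.838% and 0.199% of all genes, and the list's median log2 fold change was 0.33 against -0.01 over all genes. Itgb1, the beta-1 integrin chain shared by receptors for fibronectin, collagen and VCAM-1, was at 547, 917 and 1428 CPM in the higher-dose libraries, against 108, 139 and 178 CPM in the molar-equivalent libraries. Every higher-dose library lay far above every molar-equivalent library, and the log2 fold change was 2.77 ± 0.32 (SE, adjusted p = 0.0054). CPM of single genes are scaled with edgeR's TMM factors, and values in parentheses after them are log2 fold changes of higher-dose over molar-equivalent OVA with their SE. Alpha chains that pair with Itgb1 rose too. Itga4, the alpha-4 chain, was at 262, 378 and 328 CPM with the higher dose against 91.1, 139 and 125 CPM with the molar-equivalent dose (log2 fold change 1.45 ± 0.26, adjusted p = 0.0207). Itga2, the alpha-2 chain of a collagen receptor, was at 5.89, 16.8 and 15.7 CPM against 1.24, 2.82 and 1.42 CPM (2.82 ± 0.50, adjusted p = 0.0211). Itga4 shares 12.8% of its sequence in 31-base words with other genes, so some of its counts may be uncertain. Cd44, a hyaluronan receptor kept by antigen-experienced cells, rose to 114 ± 15.8 CPM with the higher dose, against 48.5 ± 15.9 CPM with the molar-equivalent dose (SD, n = 3 each; log2 fold change 1.23 ± 0.22, adjusted p = 0.022).

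The chemokine receptors Cxcr3 and Cxcr5 rose, and Ccr9 fell. Cxcr3, which guides effector T cells to interferon-induced chemokines, was at 202, 299 and 301 CPM in the higher-dose libraries against 60.8, 66.5 and 125 CPM in the molar-equivalent libraries (1.67 ± 0.24, adjusted p = 0.0115). Cxcr5, the receptor that draws cells to B cell follicles, was at 65.5, 90.2 and 85.3 CPM against 17.4, 31.3 and 31.1 CPM (1.60 ± 0.21, adjusted p = 0.00778). In both genes the groups did not overlap, and for Cxcr3 molar-equivalent replicate 3 stood closest to the higher dose. Ptger4, a prostaglandin E2 receptor, rose little, to 56.4 ± 2.77 CPM with the higher dose against 39.8 ± 0.501 CPM (0.50 ± 0.10, adjusted p = 0.0409). Its call held in 0 of the 6 fits with a library left out. Ccr9, the gut-homing receptor that naive CD8 cells carry, fell to 53, 48.4 and 73.6 CPM with the higher dose, against 137, 122 and 102 CPM with the molar-equivalent dose (-1.05 ± 0.17, adjusted p = 0.017). Ccr7, which guides naive cells into lymph nodes, had means of 666 CPM with the higher dose and 834 CPM with the molar-equivalent dose and did not pass (-0.32, adjusted p = 0.539).

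Nrp1 had the highest fold change among the genes whose call held in all 6 fits with a library left out. It encodes neuropilin-1, a co-receptor for semaphorins and VEGF found on anergic and regulatory T cells. Its levels were 21.9, 25.8 and 61.1 CPM in the higher-dose libraries and 2.54, 6.4 and 2.96 CPM in the molar-equivalent libraries. The groups did not overlap, and the log2 fold change was 3.22 ± 0.40 (adjusted p = 0.00741). Nrp1 and Itgb1 lie near each other on mouse chromosome 8 (GRCm38): Nrp1 runs from 128358604 to 128503363 and Itgb1 from 128685654 to 128733200, both on the plus strand. The gap is 182290 bases and holds 3 other annotated genes, of which 0 are in the count table. This pairing was seen after the values were known.

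The start regions of Itgb1, Nrp1 and Cxcr3 are shown because these genes carry the adhesion and homing changes. Each runs from 250 bases before to 50 bases after the RefSeq start (GRCm38.p6), 5′ to 3′ on the gene's strand. They span chr8:128685404-128685703 (plus), chr8:128358823-128359122 (plus) and chrX:101734098-101734397 (minus). Capitals mark matches, on either strand, to TCACAC, a core of the T-box motif bound by T-bet, to TGANTCA, the AP-1 motif, or to TTTGAA, the CHR motif of mitotic genes.
Itgb1: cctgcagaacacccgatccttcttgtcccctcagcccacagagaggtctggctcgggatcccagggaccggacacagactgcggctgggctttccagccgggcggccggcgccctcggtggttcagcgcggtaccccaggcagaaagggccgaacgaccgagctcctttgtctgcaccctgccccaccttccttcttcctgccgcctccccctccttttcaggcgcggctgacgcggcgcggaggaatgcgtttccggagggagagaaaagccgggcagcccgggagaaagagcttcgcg
Nrp1: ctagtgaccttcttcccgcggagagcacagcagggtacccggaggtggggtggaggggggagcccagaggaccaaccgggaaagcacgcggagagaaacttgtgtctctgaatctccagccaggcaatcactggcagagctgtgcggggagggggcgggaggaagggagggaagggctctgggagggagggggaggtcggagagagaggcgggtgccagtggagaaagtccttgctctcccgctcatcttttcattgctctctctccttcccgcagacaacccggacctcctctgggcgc
Cxcr3: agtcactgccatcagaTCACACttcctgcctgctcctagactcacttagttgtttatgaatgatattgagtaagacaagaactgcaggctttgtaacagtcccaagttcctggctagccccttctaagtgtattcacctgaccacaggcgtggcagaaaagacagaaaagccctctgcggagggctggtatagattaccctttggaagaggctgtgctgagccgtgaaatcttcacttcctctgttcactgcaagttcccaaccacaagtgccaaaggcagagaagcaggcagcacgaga
Cxcr3 held 1 match to TCACAC, at base 17 of the window, and the Itgb1 and Nrp1 windows held 0 matches to any of the 3 motifs. TCACAC was present in 12.5% of the 96 start regions found for genes that rose, against 11.3% of those of all genes tested. TGANTCA was present in 9.38% against 5.42%, and TTTGAA in 11.5% against 13.1%. These matches describe letters and not binding.

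**Figure D3:**
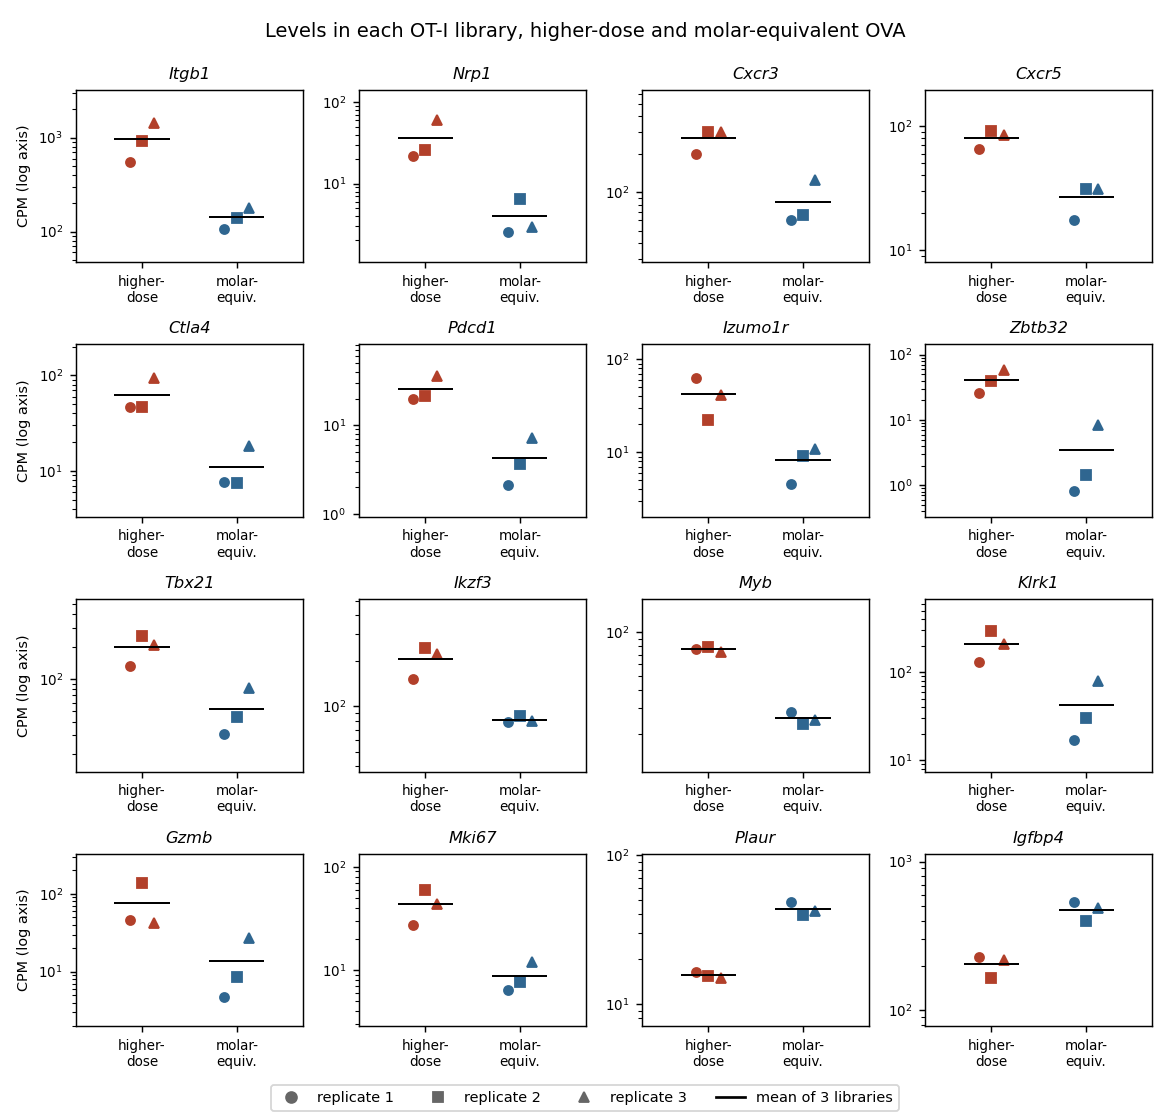
CPM of 16 genes in each OT-I library on log axes, higher-dose libraries left of molar-equivalent ones, with 1 symbol per replicate and a bar at the mean of 3. The groups do not overlap in any of the 16 panels, though Gzmb did not pass the test (adjusted p = 0.0605).

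Some inhibitory receptors and other genes tied to anergy rose. Of 20 inhibitory receptors tested, 4 rose, 20%, and 0 fell (median log2 fold change 0.48), and of 22 anergy-associated genes 8 rose, 36.4%, and 0 fell (median 0.49), against 0.838% of all genes that rose. The lists share Ctla4, Pdcd1, Cd200 and Lag3, so their counts are not separate. Ctla4, whose product takes the ligands of CD28, was at 46.2, 47.3 and 93.1 CPM in the higher-dose libraries against 7.73, 7.54 and 18.1 CPM in the molar-equivalent libraries (2.49 ± 0.36, adjusted p = 0.0117). Pdcd1, the gene of PD-1, was at 19.9, 21.5 and 35.7 CPM against 2.13, 3.68 and 7.14 CPM (2.59 ± 0.39, adjusted p = 0.0137). For both genes replicate 3 was the highest of its group at either dose, and the groups did not overlap.

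Lag3, an MHC class II receptor that dampens T cell signalling, was at 5.4, 5.07 and 8.2 CPM with the higher dose and 0.266, 0.715 and 1.74 CPM with the molar-equivalent dose (2.81 ± 0.51, adjusted p = 0.0245). Cd200, a ligand of an inhibitory receptor on myeloid cells, rose by 1.59 ± 0.29 on the log2 scale (adjusted p = 0.0234). Its levels with the higher dose were 27.56, 17.55 and 17.68 CPM, highest in replicate 1, the library with Cd4. Without that library its adjusted p was 0.0555, and its call held in 2 of the 6 fits with a library left out. Zbtb32 encodes a zinc finger repressor that holds back T cell division and cytokine output. Among the 92 genes that rose and had a mean of at least 10 CPM over the 6 libraries, Zbtb32 had the highest fold change. It was at 26.1, 40.1 and 58.3 CPM in the higher-dose libraries and 0.816, 1.43 and 8.25 CPM in the molar-equivalent libraries (3.58 ± 0.69, adjusted p = 0.0294). Its call held in 2 of the 6 fits with a library left out, and the fold change was 5.26 without molar-equivalent replicate 3.

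Izumo1r, which encodes folate receptor 4 and marks anergic and regulatory CD4 cells, was at 63.7, 22.6 and 41.2 CPM with the higher dose against 4.63, 9.15 and 10.9 CPM with the molar-equivalent dose (2.38 ± 0.39, adjusted p = 0.0167). Its highest value was in replicate 1, the library with Cd4, and without both libraries that stood apart the fold change was 2.05 (adjusted p = 0.056). Of 9 genes of the CD4 lineage 2 rose, 22.2% against 0.838% of all genes: Izumo1r and the transcription factor gene Gata3 (0.50 ± 0.10, adjusted p = 0.0382). The call of Gata3 held in 0 of the 6 fits with a library left out, and its adjusted p was 0.0956 without both libraries that stood apart. Markers of regulatory T cells were looked at too. Of 13 tested, 3 rose, 23.1% against 0.838%, all named above (Nrp1, Ctla4 and Izumo1r), and the list summed to 236 to 346 CPM of the plain total with the higher dose and 168 to 201 CPM with the molar-equivalent dose. Foxp3, which defines those cells, was at 2.84, 1.4 and 0.79 CPM in the higher-dose libraries against 1.19, 4.25 and 1.68 CPM in the molar-equivalent libraries, with overlap. Among other genes of the anergy list, Egr2, a transcription factor of the anergy program, was at 12.8 ± 2.91 CPM against 9.88 ± 1.54 CPM and did not pass (0.38 ± 0.19, adjusted p = 0.449).

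A few transcription factors of T cell fate rose. Of 31 fate transcription factors tested, 4 rose, 12.9% against 0.838% of all genes, and 0 fell. The 4 were Tbx21, Ikzf3, Myb and Zbtb32 (median of the list 0.26). Tbx21, which encodes T-bet, was at 133, 250 and 208 CPM in the higher-dose libraries against 30.4, 44.2 and 82.2 CPM in the molar-equivalent libraries (1.92 ± 0.31, adjusted p = 0.0163). Ikzf3, which encodes the Ikaros-family factor Aiolos, was at 151, 242 and 221 CPM against 78.1, 86.1 and 80 CPM (1.33 ± 0.16, adjusted p = 0.0054). Myb, a regulator of T cell proliferation and self-renewal, was tight within each group, at 76.5, 79.2 and 72.9 CPM against 28.5, 23.6 and 25 CPM (1.57 ± 0.18, adjusted p = 0.0054). Myb shares 10.1% of its 31-base words with other genes. Eomes, the T-box relative of Tbx21, was at 83.7, 161 and 122 CPM against 65.8, 64.2 and 82 CPM, without overlap, and missed the threshold (0.79 ± 0.19, adjusted p = 0.0777). Without both libraries that stood apart Eomes passed (0.94, adjusted p = 0.0336). Tcf7, which encodes TCF-1, a factor of naive and stem-like cells, had means of 1776 CPM with the higher dose and 1510 CPM with the molar-equivalent dose (0.23 ± 0.10, adjusted p = 0.336).

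Of 32 effector differentiation markers, 3 rose, 9.38% against 0.838% of all genes, and 0 fell. The 3 were Tbx21, Ifng and Anxa2, and the list's median was 0.62, or 1.08 without both libraries that stood apart. Ifng, the interferon gamma gene, was at 6.86, 9.72 and 12.7 CPM with the higher dose against 0.869, 1.36 and 3.36 CPM with the molar-equivalent dose (2.39 ± 0.44, adjusted p = 0.0245). It shares 16.6% of its 31-base words with another gene. Anxa2, a calcium-dependent membrane-binding protein, was at 168, 360 and 280 CPM against 46 to 119 CPM (1.78 ± 0.33, adjusted p = 0.0245). Klrk1, which encodes the activating receptor NKG2D, was at 130, 296 and 209 CPM against 17.1, 30.1 and 79.8 CPM (2.32 ± 0.47, adjusted p = 0.0399). Klrk1 was the only gene that passed among 17 NK-type receptors, 5.88% against 0.838% of all genes, and the list's median was -0.53, or 0.15 without both libraries that stood apart. Klrc1, which encodes NKG2A and shares 53.1% of its 31-base words with another gene, missed the threshold (2.15 ± 0.50, adjusted p = 0.0591).

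The summed markers of natural killer cells overlapped between the doses. Of 14 NK cell markers 1 rose, 7.14% against 0.838% of all genes, the integrin gene Itga2, and their sum was 425 to 723 CPM of the plain total with the higher dose and 523 to 597 CPM with the molar-equivalent dose. Ncr1, which defines NK cells, was at 1.62, 0.729 and 1.82 CPM in the higher-dose libraries against 0.284, 4.68 and 1.28 CPM in the molar-equivalent libraries. Other genes with a large change were Chst2, a sulfotransferase, at 24.2, 33.4 and 24.5 CPM against 1.6, 2.97 and 6.34 CPM (2.93 ± 0.42, adjusted p = 0.0115), and Plek, the protein kinase C substrate pleckstrin, at 47.8, 131 and 96.5 CPM against 8.24, 34.7 and 22.3 CPM (2.09 ± 0.44, adjusted p = 0.0475). The neighbouring protease-inhibitor genes Ctla2a and Ctla2b both rose, by 2.19 and 2.21 on the log2 scale. They share 40.2% and 92% of their 31-base words with another gene, so reads may have been split between copies.

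The granzymes showed large but uneven differences. Of 15 granule and cytolytic genes 1 rose, 6.67% against 0.838% of all genes. It was Serpinb6b, a serine protease inhibitor, at 56.4 ± 22 CPM with the higher dose against 24.3 ± 6.61 CPM (1.22 ± 0.26, adjusted p = 0.0444). Gzmb, the cytotoxic protease granzyme B, was at 46.8, 139 and 42.3 CPM in the higher-dose libraries against 4.72, 8.5 and 27.3 CPM in the molar-equivalent libraries. The groups did not overlap, but the spread within each was large, and the log2 fold change of 2.50 ± 0.58 missed the threshold (adjusted p = 0.0605). Gzmk, another granzyme, was at 12.6, 56.3 and 17 CPM against 0.479, 1 and 9.67 CPM (2.95 ± 0.91, adjusted p = 0.165). Gzma, the granzyme A gene, overlapped between the groups, at 46.8, 188 and 38.5 CPM against 7.13, 26.5 and 46.4 CPM (1.77 ± 0.62, adjusted p = 0.233). In all 3 granzyme genes replicate 2 was the highest with the higher dose and replicate 3 the highest with the molar-equivalent dose. Prf1, which encodes perforin, had means of 137 and 151 CPM (-0.14 ± 0.18, adjusted p = 0.841), and Ccl5, a chemokine of effector cells, had 295 ± 162 and 127 ± 81.1 CPM (1.22 ± 0.46, adjusted p = 0.271).

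Most cell cycle genes lay higher with the higher dose, though few passed the test singly. Of 60 tested, 8 rose and 0 fell, against 0.838% of all genes that rose. The list's median log2 fold change was 1.23, against -0.01 over all genes, 55 of the 60 were positive, and 35 had every higher-dose library above every molar-equivalent one, against 8.55% of all genes. Without both libraries that stood apart the median was 1.22. Mki67, which encodes the proliferation marker Ki-67, was at 27.5, 60 and 43.2 CPM with the higher dose against 6.35, 7.68 and 11.8 CPM with the molar-equivalent dose (2.34 ± 0.42, adjusted p = 0.022). Rrm2, a ribonucleotide reductase subunit needed for DNA synthesis, was at 57.7, 124 and 63.8 CPM against 23.4, 16.8 and 32.8 CPM (1.75 ± 0.36, adjusted p = 0.0405). The mitotic motor gene Kif11 rose by 2.07 ± 0.43 (adjusted p = 0.0405), and the spindle checkpoint kinase gene Bub1b by 1.80 ± 0.39 (adjusted p = 0.0484), both on the log2 scale. Prc1, Ncapg, Ccne2 and Kif4, which act in cytokinesis, chromosome condensation, entry into S phase and spindle assembly, were the other cell cycle genes that rose. They share 16.9% to 25.4% of their 31-base words with other genes, and Rrm2 shares 15%. Each of the 8 calls held in only 1 or 2 of the 6 fits with a library left out. None of the 8 passed without higher-dose replicate 2 (adjusted p = 0.0974 to 0.242). Top2a, a DNA topoisomerase of dividing cells, missed the threshold at 31.6, 56.8 and 41.4 CPM against 13.4, 14.3 and 19.7 CPM (1.45 ± 0.33, adjusted p = 0.0542).

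The start region of Mki67 is shown because it stands for the cell cycle genes. It spans chr7:135716330-135716629 on the minus strand (RefSeq, GRCm38.p6), 5′ to 3′ on the gene's strand, with capitals as above.
Mki67: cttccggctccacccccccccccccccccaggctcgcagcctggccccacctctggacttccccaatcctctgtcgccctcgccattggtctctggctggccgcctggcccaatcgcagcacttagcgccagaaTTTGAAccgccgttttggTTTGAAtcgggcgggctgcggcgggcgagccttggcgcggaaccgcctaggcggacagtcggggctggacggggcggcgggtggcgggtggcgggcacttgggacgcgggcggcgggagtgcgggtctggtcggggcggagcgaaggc
It held 2 matches to the CHR motif TTTGAA, at bases 135 and 153 of the window, a motif present in 13.1% of the start regions of all genes tested.

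**Figure D4:**
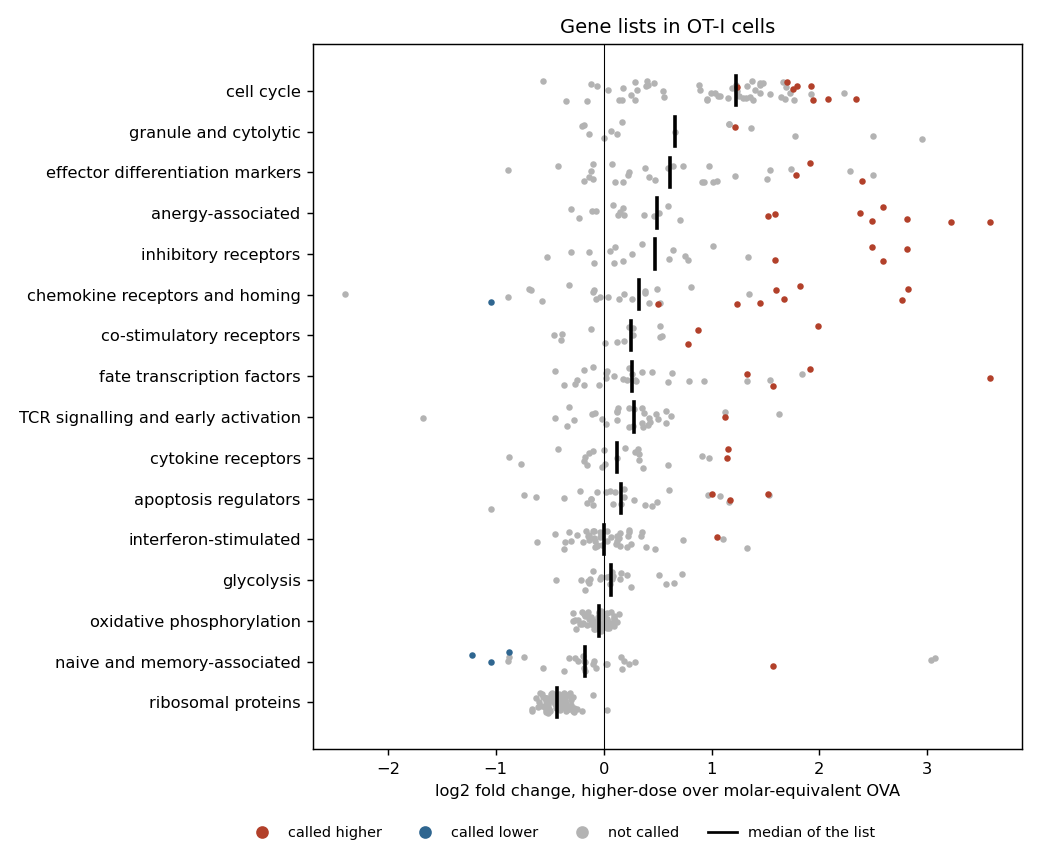
Log2 fold changes of higher-dose over molar-equivalent OVA in OT-I cells for the members of 16 gene lists, 1 point per gene tested, coloured where the gene passed the test, with a bar at each list's median. The cell cycle list had a median of 1.23 and the ribosomal protein list one of -0.43.

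Some receptors for growth and co-stimulation rose. Of 23 cytokine receptors 2 rose, 8.7% against 0.838% of all genes, and 0 fell. Il2rb, the beta chain shared by the IL-2 and IL-15 receptors, was at 739, 1432 and 1243 CPM with the higher dose against 453, 534 and 548 CPM with the molar-equivalent dose (1.15 ± 0.19, adjusted p = 0.0168). Il10ra, an IL-10 receptor chain, rose by 1.14 ± 0.24 on the log2 scale (adjusted p = 0.0405). Of 16 co-stimulatory receptors 3 rose, 18.8% against the same 0.838%, and 0 fell. Cd28, the main co-stimulatory receptor of T cells, rose to 278 ± 29.4 CPM against 162 ± 20.7 CPM (0.78 ± 0.13, adjusted p = 0.017), but without both libraries that stood apart its adjusted p was 0.0711. The SLAM-family receptor genes Slamf6 and Slamf7 rose by 0.87 ± 0.14 and 1.99 ± 0.34 (adjusted p = 0.0144 and 0.017).

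Some regulators of cell death rose. Of 29 apoptosis regulators 3 rose, 10.3% against 0.838% of all genes, and 0 fell, among them Bcl2l1, which encodes the survival protein Bcl-xL, and Casp1, the inflammatory caspase gene (1.17 ± 0.25, adjusted p = 0.0484). The call of Casp1 held in 0 of the 6 fits with a library left out. Bcl2l1 was at 45.6, 56.3 and 54.6 CPM in the higher-dose libraries against 22.4, 28.4 and 27.4 CPM in the molar-equivalent libraries (1.00 ± 0.16, adjusted p = 0.0144). Bcl2, a survival protein gene of resting T cells, was at 183, 145 and 185 CPM against 358, 237 and 261 CPM, without overlap, and did not pass (-0.74 ± 0.20, adjusted p = 0.122).

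Of 32 genes of recent receptor signalling 1 rose, 3.12% against 0.838% of all genes, and 0 fell. It was Irf4, a transcription factor induced in proportion to receptor signal strength, at 21.1, 23.3 and 33.8 CPM with the higher dose against 11.5, 12.2 and 12.1 CPM (1.13 ± 0.18, adjusted p = 0.0163). The list's median was 0.28, and without both libraries that stood apart it was -0.04. Nr4a1, an immediate early gene of the T cell receptor, had means of 115 ± 30.9 and 77.1 ± 10.7 CPM (0.57 ± 0.22, adjusted p = 0.291), and its highest value, 148 CPM, was in higher-dose replicate 1. Xcl1 and Ccl4, chemokines of activated CD8 cells, had log2 fold changes of 0.24 and 0.42 (adjusted p = 0.837 and 0.692), and Xcl1 shares 14.2% of its 31-base words with another gene. Tnfrsf9, which encodes the activation receptor 4-1BB, had a log2 fold change of 0.24 (adjusted p = 0.745).

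The genes that fell included several of naive T cells. Of 29 naive and memory-associated genes 3 fell, 10.3% against 0.199% of all genes, and 1 rose, 3.45% against 0.838%. Igfbp4, Ccr9 and Treml2 fell and Myb rose (median of the list -0.18), and the call of Treml2 held in 0 of the 6 fits with a library left out. Igfbp4, an insulin-like growth factor binding protein gene, fell to 230, 166 and 217 CPM with the higher dose, against 534, 399 and 490 CPM with the molar-equivalent dose (-1.22 ± 0.23, adjusted p = 0.0255). Plaur, which encodes the urokinase receptor, fell to 16.5, 15.3 and 15 CPM, against 48.3, 39.3 and 42.3 CPM (-1.47 ± 0.22, adjusted p = 0.0137). In both genes every higher-dose library lay well below every molar-equivalent library. Rnf130, which encodes a RING-domain ubiquitin ligase, fell to 29.1, 27.2 and 27.6 CPM, against 46, 54.3 and 52.4 CPM (-0.86 ± 0.12, adjusted p = 0.0115), a call that held in 5 of the 6 fits with a library left out. Il7r, the IL-7 receptor chain that keeps naive cells alive, was at 186, 247 and 256 CPM against 486, 418 and 359 CPM, without overlap, and missed the threshold (-0.87 ± 0.20, adjusted p = 0.0542).

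Other genes that fell had smaller or less even changes. Slpi, a secreted protease inhibitor also made by myeloid cells, fell by 1.38 ± 0.27 on the log2 scale (adjusted p = 0.0332). It was highest, at 41 CPM, in molar-equivalent replicate 2, the library with raised myeloid markers, and its adjusted p without both libraries that stood apart was 0.0916. Ncf1, a subunit of the phagocyte NADPH oxidase, was also highest there, at 67.1 CPM, and fell by 0.98 ± 0.15 (adjusted p = 0.0137), with an adjusted p of 0.0505 without both. The part of the myeloid cells in these changes was not tested. Pmepa1, a TGF-beta target that restrains that pathway, fell by 1.06 ± 0.20 (adjusted p = 0.0294), and Pltp, a phospholipid transfer protein gene, by 0.85 ± 0.15 (adjusted p = 0.0175). Stx1a, Actn2, Ggt1 and Treml2 fell by 0.96, 0.86, 0.88 and 0.87. Ncf1 and Pltp share 10.9% and 15.3% of their 31-base words with other genes.

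Several whole classes gave no call. None of 24 glycolysis genes, 65 oxidative phosphorylation genes, 25 cholesterol synthesis genes or 17 antigen presentation genes passed, 0 in each, with medians between -0.10 and 0.07. Among 44 interferon-stimulated genes 1 rose, 2.27% against 0.838% of all genes, Ifi27l2a (1.05 ± 0.20, adjusted p = 0.0294, and 0.104 without both libraries that stood apart). None of 81 ribosomal protein genes passed either (0 called), yet all but 1 had a negative fold change, with a median of -0.43, and 18 of the 81 lay below the molar-equivalent dose in every library, as did 6.53% of all genes. Their sum was 30300 to 39100 CPM of the plain total with the higher dose and 38200 to 62400 CPM with the molar-equivalent dose, so the groups overlapped. B cell and myeloid markers gave 0 calls of 20 and 26, with medians of -2.24 and -0.90, and of -0.51 and 0.43 without both libraries that stood apart.

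Saline libraries gave the level without antigen. Against saline, the molar-equivalent dose moved 0 of 14080 genes, 0%, in edgeR's quasi-likelihood test. At an unadjusted p under 0.05 there were 266 genes, and DESeq2 called 1. The higher dose moved 339 genes against saline, 2.41%, of which 277 rose, 1.97%, and 62 fell, 0.44%. Without higher-dose replicates 1, 2 and 3 in turn that count was 303, 75 and 163, and without saline replicates 1, 2 and 3 it was 99, 73 and 83. These comparisons share libraries with the dose step, so their values are given side by side only.

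For Itgb1 the means of saline, molar-equivalent and higher-dose libraries were 115, 142 and 964 CPM. Pdcd1 had 3.96, 4.32 and 25.7 CPM in the same order, and Nrp1 3.05, 3.96 and 36.3 CPM. In all 3 genes the molar-equivalent mean lay close to that of saline and far below that of the higher dose. Cxcr3 had means of 55.3, 84.2 and 268 CPM, and Zbtb32 1.03, 3.5 and 41.5 CPM. In both, molar-equivalent replicate 3 was the highest of the lower dose, at 125 CPM of Cxcr3 and 8.25 CPM of Zbtb32. Igfbp4 had means of 483, 474 and 204 CPM and Plaur 40.2, 43.3 and 15.6 CPM. Gzmb had 6.51, 13.5 and 76 CPM, and its difference between higher-dose OVA and saline did pass (3.54, adjusted p = 0.00996).

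The same dose step was also measured in OT-II cells, in 2 higher-dose and 3 molar-equivalent libraries. The labels do not say whether the OT-I libraries came from the same mice. There 0 of 14757 genes passed, 0%, with 792 at an unadjusted p under 0.05 and 53 called by DESeq2. Of the 118 genes that rose in OT-I, 109 had a positive OT-II fold change, which is 92.4% against 48.4% of all genes, with a median of 0.46 against -0.01. Of the 28 that fell, 21 had a negative one, 75%, while 48.4% of all genes had a positive one. Their median was -0.18, against -0.01 over all genes. Cxcr5 had log2 fold changes of 1.60 in OT-I and 1.86 in OT-II cells, Mki67 of 2.34 and 2.11, and Il2rb of 1.15 and 1.11. Nrp1 had 3.22 and 0.22, Klrk1 2.32 and -0.28, Itga4 1.45 and -0.05, and Plek 2.09 and -0.76.

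The difference between the cell types was tested as an interaction, and 0 of 15235 genes passed, 0%. There were 775 genes at an unadjusted p under 0.05, and DESeq2 called 26. Nrp1 had the lowest adjusted p among the genes that rose, at 0.0807, with a difference of 2.97 on the log2 scale. For Klrk1 the difference was 2.57 (adjusted p = 0.606). Without OT-I molar-equivalent replicates 2 and 3 the test called 2 and 6 genes, without OT-I higher-dose replicates 1 and 2 it called 3 and 1, and without any other free OVA library 0.

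OT-I cells of mice given A8B1-OVA were set against saline, a comparison chosen late, with the data in view. Those 6 libraries are outside the 2 dose groups but are in the same fit, and the calls of the dose step borrow their spread. A8B1-OVA moved 1620 of 14080 genes, 11.5%, with 996 higher, 7.07%, and 624 lower, 4.43%. All 118 genes that rose with the OVA dose had a positive fold change there, against 48.1% of all genes, and 94 of them were called higher. Of the 28 that fell, 26 had a negative one and 24 were called lower. Itgb1 rose by 2.29 on the log2 scale with A8B1-OVA over saline (adjusted p = 0.00059), Pdcd1 by 4.30 (adjusted p = 8.1e-05) and Zbtb32 by 5.94 (adjusted p = 0.000413).

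Levels under both forms of antigen are set side by side here. Gzmb was at 5.81, 8.63 and 5.45 CPM in the A8B1-OVA libraries, close to the 5.34 to 7.51 CPM of saline (0.02, adjusted p = 0.983), against 42.3 to 139 CPM with the higher dose of free OVA. Klrk1 was at 37.4, 39.4 and 67.2 CPM with A8B1-OVA (1.14 over saline, adjusted p = 0.132). Xcl1 was at 177, 155 and 90 CPM with A8B1-OVA and 10 to 14.6 CPM with the higher dose of free OVA, beside 9.51 to 15.8 CPM in saline. Tnfrsf9 was at 198, 210 and 144 CPM with A8B1-OVA and 26 to 44.9 CPM with the higher dose, beside 25.6 to 38.9 CPM in saline. The difference between A8B1-OVA and higher-dose OVA was not tested here.

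**Figure D5:**
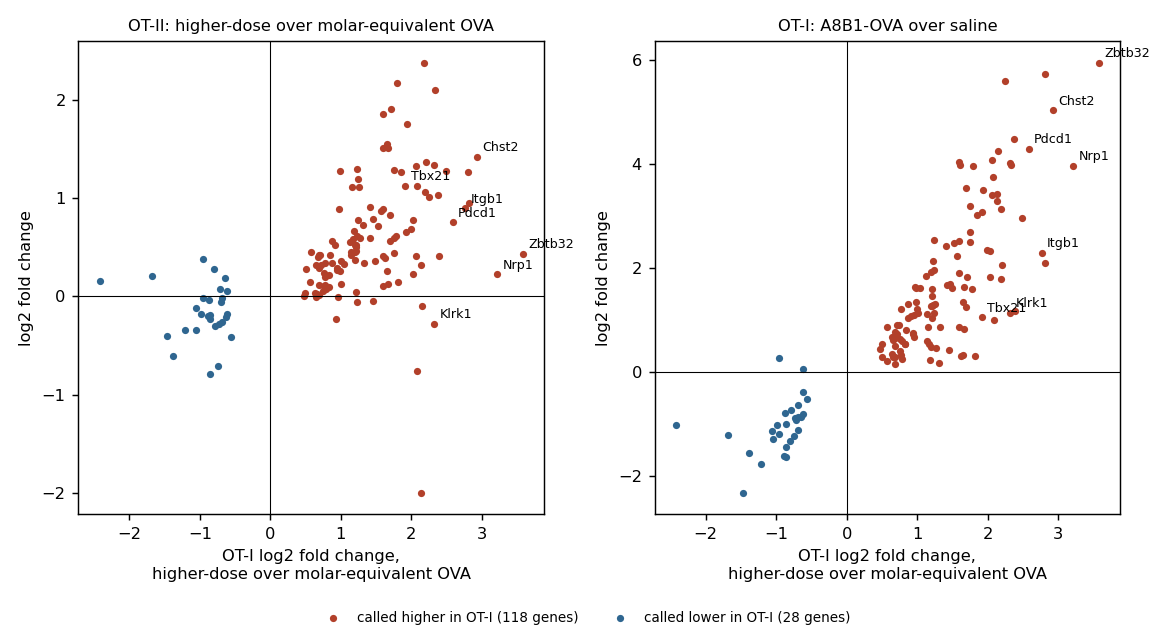
Log2 fold changes of the 118 genes called higher and the 28 called lower in the OT-I dose step (x axis), against their fold changes in the OT-II dose step (left) and for A8B1-OVA over saline in OT-I cells (right). On the left 109 of the 118 lay above 0, and on the right all 118 did.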

How the data were processed

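The submitters' processing notes name bcl2fastq, kallisto 0.46.1 and the build GRCm38. The authors deposited estimated counts for 21900 protein-coding genes in 23 libraries, all of them whole numbers. No header or label gives the annotation release, the strand, the rounding or the summing to genes.

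The 12 OT-I libraries were fitted together with edgeR 4.0.16 under R 4.3.3: TMM factors, a filterByExpr filter at counts of 10 and totals of 15, group means as coefficients, and the quasi-likelihood test. OT-II had a fit of its own 11 libraries, and the interaction one of all 23. Genes passed at a Benjamini-Hochberg adjusted p under 0.05. DESeq2 1.42.0 and limma 3.58.1 served as alternatives. The test was tried on simulated counts. Replicates of a group differed by far more than sampling noise. With 3 libraries per group an exact permutation test cannot go below p = 0.1, so none is given.

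Genes, lists and groups were chosen with earlier results of these data known. Named genes were the 12 highest and 12 lowest fold changes among called genes of at least 10 CPM without overlap, a panel, and up to 4 genes per list. Capn3, Stk39, Ttc39b and Dop1b, and the marker genes Foxp3 and Ncr1, were named after their values were seen. Start regions are RefSeq's, and 96 of the 118 genes that rose and 22 of the 28 that fell had one. Positions and shared words are from GENCODE M21, which holds 21806 of the identifiers. Some members of the lists are counted but not reported here by name.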

Additional observations from a re-analysis of the deposited data

How the results depend on the processing

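The 146 calls of the dose step became 143 with RLE factors, 149 without a filter, 262 with limma-voom and sample quality weights, 616 with DESeq2 and 2 when only the 6 free OVA libraries were fitted. With any of the 6 left out the count was 13 to 153. Deviations of log2 CPM from the group mean correlated at -0.0666, -0.143 and -0.0743 between same-numbered libraries of the 2 doses. Between libraries with other numbers they correlated at -0.0402 to 0.115. These values showed no pairing, but with 3 libraries per group they cannot decide whether the numbers pair libraries. The fit with a replicate block gave 116 calls. Of 59 genes of the text that passed, 58 still did with RLE, 59 with DESeq2, 52 with limma-voom and 47 with the block. Without both libraries with raised markers 36 did. When only the 6 free OVA libraries were fitted just 2 did, Myb and Plaur. Without single libraries 12 to 48 of the 59 still passed. None changed sign, which genes without overlap between the groups could hardly do. Higher-dose OVA against saline gave 721 calls with DESeq2 and 73 to 303 without single libraries. Molar-equivalent OVA against saline gave 1 call with DESeq2 and 0 without any single library. The OT-II dose step gave 2 calls without a filter, 53 with DESeq2 and 0 without any single library. The interaction gave 1 call without a filter, 26 with DESeq2, 4 without both libraries with raised markers and 0 to 6 without single ones. The cause of these shifts was not tested. Among genes that did not pass, some turned sign. Without both libraries Prf1 was at 0.0118, Tnfrsf9 at -0.0182 and Cd4 at -1.29 (log2), and limma-voom gave Cd4 -0.21. Without single libraries Prf1 ran from -0.27 to 0.0636, Tnfrsf9 from -0.0337 to 0.39, Xcl1 from -0.0459 to 0.42, Cd8a from -0.26 to 0.0031 and Cd4 from -2.25 to 4.39. Depth limits genes near 1 CPM, such as Lag3 and Gzmk at the lower dose.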
